A study of Sus scrofa with 32 samples.

Results

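ANKRD2 and CSRP3 are striated muscle genes whose RNA is known to increase when muscle is stretched or loaded, and they were followed here across 4 breed groups of pigs. They are 2 of the 17930 genes listed in the deposited files and 2 of the 12821 genes with enough reads to be tested. Both were selected on their measured levels, since earlier results of the same libraries had them far higher in Dapulian than in Landrace loin. Their levels against Landrace are therefore given as a description and without a test. In the files they carry the pig Ensembl identifiers ENSSSCG00000010522 (ANKRD2) and ENSSSCG00000013354 (CSRP3). No pig build is named in the sources used here, and neither positions nor sequences are printed.

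RNA of the longissimus dorsi, the loin muscle along the back, was sequenced from pigs aged 6 months, with 8 libraries in each group. The groups were DLDPL (Duroc x Landrace x Dapulian), LDPL (Landrace x Dapulian), DPL (Dapulian, a Chinese breed) and L (Landrace). All carried the label wild type, and per the labels the animals were kept in similar surroundings on similar feed. Sex, litter, weight and slaughter conditions are not stated, and nothing beyond the labels says that the libraries came from separate animals, so the p-values measure the spread between these samples.

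ANKRD2 belongs to the muscle ankyrin repeat proteins, which sit on the titin filament in the I-band and can also enter the nucleus. CSRP3, or muscle LIM protein, is a small protein with a pair of LIM domains that binds the Z-disc, where the thin filaments of neighbouring sarcomeres are anchored. Both are regarded as links between mechanical load on the sarcomere and gene expression, and both are known from rodent and human work to be more abundant in slow than in fast skeletal muscle. Mutations of CSRP3 are a known cause of human cardiomyopathy.

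Depth averaged 24972962 reads per library in DLDPL, 24612294 in LDPL, 26184718 in DPL and 26590633 in L. ACTA1, the main actin of skeletal muscle, had 19443 to 87657 counts per 1000000 reads, and the heart genes GATA4 and MYBPC3 had at most 2 and 6 reads in any library. Of the other heart markers, MYH6, whose reads may be shared with near-identical myosin heavy chains, had 869 to 9579 counts per 1000000 reads, and TNNT2 had 0.246 to 71.6. After scaling, TNNT2 reached 49.7 in L replicate 2. Its median was 1.97 in L, and it reached at most 2.18 in the other groups. The share of mitochondrially encoded RNA was 22.7 ± 4.9% in DLDPL, 22.9 ± 4.4% in LDPL, 31.3 ± 5.6% in DPL and 20.8 ± 2.6% in L (SD, n = 8 each). The L libraries carry replicate numbers of their own, and no batch or date is given, so wherever L is compared, breed and handling cannot be told apart. The library that agreed least with the others of its group was L replicate 2, with a mean correlation of 0.952 across genes, and the next lowest, DPL replicate 16, had 0.954.

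Both genes were measured with many reads. ANKRD2 had 204 reads in its lowest library and 14976 in its highest, and CSRP3 had 1010 and 29392. Reads covered 98.4% to 99.8% of the listed length of ANKRD2 (999 bases) and 96.4% to 99.9% of that of CSRP3 (927 bases). Together they took 0.0440% of all reads in DLDPL, 0.0688% in LDPL, 0.103% in DPL and 0.0107% in L, as group means. Library preparation did not keep the strand, so reads of any gene on the opposite strand would be counted with them.

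ANKRD2 was lowest in L, and its level followed the order DPL, LDPL, DLDPL, L. In DLDPL it ranged from 47.2 to 191 CPM (counts per 1000000 reads after scaling), with a median of 113 CPM, and in LDPL from 64.6 to 315 CPM (median 155 CPM). In DPL it ranged from 125 to 486 CPM (median 292 CPM), and in L from 7.90 to 51.3 CPM (median 17.8 CPM). Every DPL library and every LDPL library lay above the highest L library, and 7 of 8 DLDPL libraries did. The exception was DLDPL replicate 28 at 47.2 CPM, below L replicate 5 at 51.3 CPM. The group means were 112 ± 51.7 CPM in DLDPL, 169 ± 84.4 CPM in LDPL, 291 ± 119 CPM in DPL and 21.6 ± 14.8 CPM in L (SD, n = 8 each).

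CSRP3 followed the same order of groups. In DLDPL it ranged from 101 to 590.1 CPM with a median of 361 CPM, and in LDPL from 182 to 753 CPM (median 590.0 CPM). In DPL it ranged from 450.3 to 1592 CPM (median 715 CPM), and in L from 28.3 to 192 CPM (median 62.3 CPM). All DPL libraries again lay above all L libraries. In LDPL, replicate 9 fell below the highest L library, and in DLDPL, replicates 18, 28 and 32 did. The group means were 316 ± 170.5 CPM in DLDPL, 523 ± 196 CPM in LDPL, 828 ± 364 CPM in DPL and 80.6 ± 54.1 CPM in L (SD, n = 8 each). In bulk tissue a smaller number of fibres that express a gene and less of its RNA per fibre cannot be told apart.

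**Figure D1:**
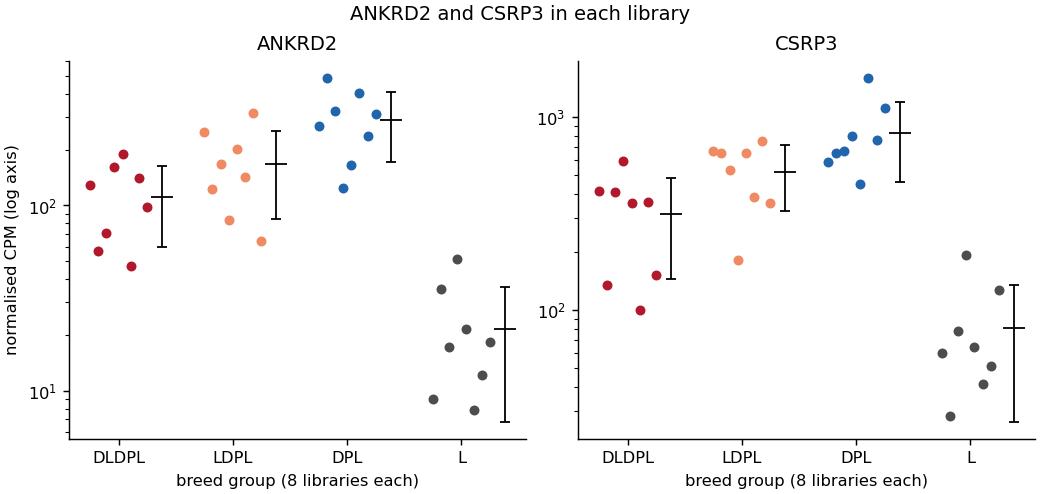
Normalised CPM of ANKRD2 and CSRP3 on a log axis, with 1 point per library in the groups DLDPL, LDPL, DPL and L, and the group mean ± SD beside the points (n = 8 each). The L libraries lie at 7.90 to 51.3 CPM for ANKRD2 and 28.3 to 192 CPM for CSRP3, and the DPL libraries start at 125 and 450.3 CPM.

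On the log2 scale of the fitted model, ANKRD2 was 3.75 ± 0.39 higher in DPL than in L (13.4-fold, estimate ± SE), 2.96 ± 0.38 higher in LDPL (7.78-fold) and 2.37 ± 0.37 higher in DLDPL (5.16-fold). CSRP3 was 3.36 ± 0.38 higher in DPL than in L (10.3-fold), 2.70 ± 0.37 higher in LDPL (6.49-fold) and 1.97 ± 0.36 higher in DLDPL (3.92-fold). Ordered from the largest increase, ANKRD2 stood at place 28 and CSRP3 at place 41 of the 12821 tested genes in DPL against L. In LDPL against L they stood at 38 and 48, and in DLDPL against L at 71 and 120. These 3 comparisons share the same 8 L libraries and are the ones on which the genes were chosen. In DPL against L 19.1% of all tested genes were called higher at an adjusted p under 0.05 and 18.9% lower, and nothing is read from the place of the 2 genes against that background.

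The 3 comparisons among DLDPL, LDPL and DPL use the same libraries as those that chose the genes. Genes chosen for high levels in DPL are more likely to be lower in any group set against DPL, so the p-values of DLDPL and LDPL against DPL are not independent of the choice and may be too small. With that limit, both genes passed the test as lower in DLDPL than in DPL. ANKRD2 averaged 112 ± 51.7 CPM in DLDPL and 291 ± 119 CPM in DPL (SD, n = 8 each). All 8 DLDPL libraries were below the DPL median, and 4 of them below the lowest DPL library. Its log2 change was -1.38 ± 0.36, with a 95% interval of -2.08 to -0.68, which is 2.60-fold lower (edgeR quasi-likelihood test, adjusted p = 0.0225).

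CSRP3 averaged 316 ± 170.5 CPM in DLDPL and 828 ± 364 CPM in DPL (SD, n = 8 each). All 8 DLDPL libraries were below the DPL median, and 7 of them below the lowest DPL library. The log2 change was -1.39 ± 0.36, with a 95% interval of -2.09 to -0.69, which is 2.62-fold lower (edgeR, adjusted p = 0.0217). In this comparison 2.12% of all tested genes were called lower and 1.98% higher, and CSRP3 and ANKRD2 had the 51st and 53rd lowest change of 12821.

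Both calls lie close to the threshold. For ANKRD2 the call was lost without DPL replicate 11 (log2 change -1.23, adjusted p = 0.0553) and without DLDPL replicate 18 (-1.28, adjusted p = 0.0503). For CSRP3 it was lost without DPL replicate 23 (-1.19, adjusted p = 0.0575), the library with the highest CSRP3 level of all. With the median covered length of long genes as a covariate, the log2 change was -1.36 for ANKRD2 (adjusted p = 0.0656) and -1.35 for CSRP3 (adjusted p = 0.0544).

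Other measures differed between DLDPL and DPL too. With the mitochondrially encoded genes taken out of the table and the totals, the log2 change was -1.39 for ANKRD2 (edgeR, adjusted p = 0.0210) and -1.40 for CSRP3 (edgeR, adjusted p = 0.0208). Within each group the correlation of either gene with the mitochondrial share lay between -0.34 and 0.29 across 8 libraries, which share depth and handling. Of 5 tested fibroblast markers 2 rose and 0 fell in DLDPL against DPL, where 1.98% of all tested genes were called higher and 2.12% lower. Their summed level ranged from 850.0 to 2658 CPM in DLDPL and from 323 to 1205 CPM in DPL, with no marker at 0 in all libraries. Of 8 smooth muscle and pericyte markers 1 rose, with sums of 4904 to 8159 CPM in DLDPL and 5407 to 8977 CPM in DPL. These sums hold DES (desmin), also a Z-disc gene, and may include RNA of the muscle fibres. Of 6 satellite cell and immature fibre markers 1 rose. The part of the mitochondrial share and of the marked cell types in the levels of ANKRD2 and CSRP3 was not tested.

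For LDPL against DPL neither gene passed the test. ANKRD2 averaged 169 ± 84.4 CPM in LDPL and 291 ± 119 CPM in DPL, and 3 of 8 LDPL libraries were below the lowest DPL library. The log2 change was -0.79 ± 0.35, with a 95% interval of -1.48 to -0.10 (edgeR, adjusted p = 0.232). CSRP3 averaged 523 ± 196 CPM in LDPL and 828 ± 364 CPM in DPL, and again 3 of 8 LDPL libraries were below the lowest DPL library. Its log2 change was -0.66 ± 0.35, with an interval of -1.35 to 0.03 (edgeR, adjusted p = 0.327). Here 1.56% of all tested genes were called lower and 1.29% higher.

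DLDPL against LDPL gave no call for either gene. The log2 change of ANKRD2 was -0.59 ± 0.35, with a 95% interval of -1.28 to 0.10 (edgeR, adjusted p = 0.739). That of CSRP3 was -0.73 ± 0.35, with an interval of -1.42 to -0.04 (edgeR, adjusted p = 0.651). The edgeR test called 0 of 12821 genes (0%) in this comparison, and 969 had an unadjusted p under 0.05. DESeq2 called 33 genes, limma-voom 1 and limma on log2(RPKM + 1) 0. In the order of levels, neighbouring groups among DPL, LDPL and DLDPL were therefore not separated by the test. The ends of that order, DLDPL and DPL, passed it, with calls close to the threshold that some alternatives lost. Since the genes were chosen for high levels in the same DPL libraries, no gradient between the groups is read from this.

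**Figure D2:**
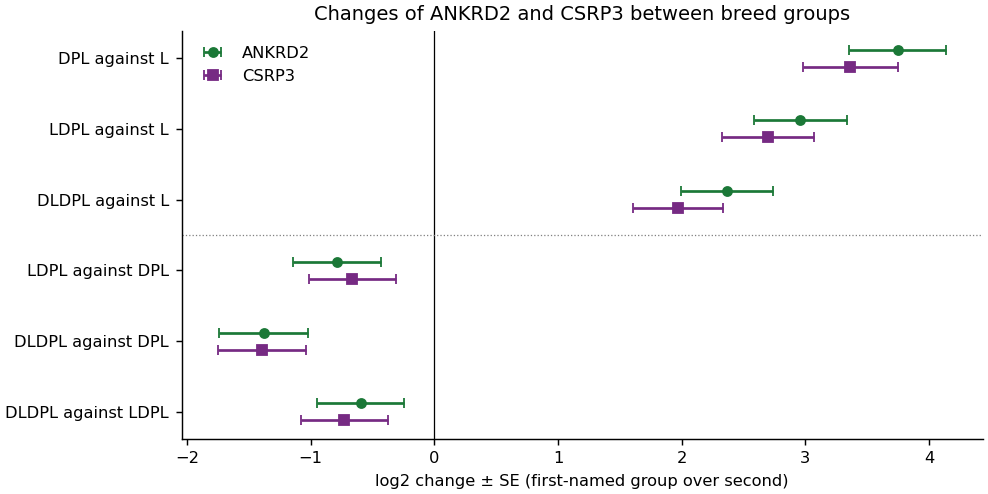
Log2 change ± SE of ANKRD2 (circles) and CSRP3 (squares) in the 6 pairs of breed groups, with the first-named group over the second. The 3 comparisons above the dotted line chose the genes and run from 1.97 to 3.75, and the 3 below it run from -1.39 to -0.59.

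Per length, CSRP3 was the more abundant gene in 31 of 32 libraries. In RPKM (reads per kilobase of gene and 1000000 reads), CSRP3 averaged 349 ± 185 in DLDPL, 562 ± 207 in LDPL, 815 ± 282 in DPL and 90.0 ± 63.3 in L (SD, n = 8 each). ANKRD2 averaged 117 ± 60.4 RPKM in DLDPL, 167 ± 78.2 RPKM in LDPL, 271 ± 116 RPKM in DPL and 24.0 ± 19.1 RPKM in L. Among all genes of a library ordered by RPKM, CSRP3 had a median place of 151.5 in DLDPL, 109.5 in LDPL, 79 in DPL and 612.5 in L. The median place of ANKRD2 was 453.5 in DLDPL, 338.5 in LDPL, 214.5 in DPL and 2085.5 in L.

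The ratio of CSRP3 to ANKRD2 in RPKM had a median of 2.66 in DLDPL, 3.16 in LDPL, 3.19 in DPL and 4.72 in L. It ranged from 1.68 to 6.27 in DLDPL, from 2.36 to 5.97 in LDPL, from 1.45 to 6.88 in DPL and from 0.862 to 7.50 in L. The ranges of all 4 groups overlapped. The only library with more ANKRD2 than CSRP3 per length was L replicate 2. After scaling, it had the lowest CSRP3 level of the 32 libraries, at 28.3 CPM. Its ANKRD2 level, at 35.4 CPM, was the second highest in L. Its scaling factor, 1.44, was the largest of the 32 libraries. In RPKM, its CSRP3 level (44.0) lay just above the lowest, that of L replicate 8 (42.3). Without L replicate 2, L averaged 19.7 ± 14.8 CPM of ANKRD2 and 88.1 ± 53.8 CPM of CSRP3 (SD, n = 7).

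The log2 ratio of ANKRD2 to CSRP3 per length did not differ detectably between the groups tested. The mean difference was -0.16 for LDPL against DPL (exact permutation test, two-sided, p = 0.602, adjusted over 3 tests 0.746). For DLDPL against DPL it was 0.10 (p = 0.746, adjusted 0.746, exact permutation), and for DLDPL against LDPL 0.26 (p = 0.355, adjusted 0.746, exact permutation).

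Within groups, libraries high in one gene tended to be high in the other in the crosses, but no relation passed the correction for 4 groups. Pearson's r of the log2 CPM values was 0.76 in DLDPL (exact permutation p = 0.0360, adjusted 0.0720) and Spearman's rho 0.62 (exact permutation p = 0.115, adjusted 0.230). In LDPL r was 0.77 (exact permutation p = 0.0220, adjusted 0.0720) and rho 0.83 (exact permutation p = 0.0154, adjusted 0.0615). In DPL r was 0.38 (exact permutation p = 0.354, adjusted 0.354) and rho 0.19 (p = 0.665, adjusted 0.665, exact permutation). In L r was 0.40 (exact permutation p = 0.331, adjusted 0.354) and rho 0.40 (p = 0.327, adjusted 0.436, exact permutation).

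Without the 2 libraries farthest from the ANKRD2 median, r was 0.32 in DLDPL, 0.81 in LDPL, 0.26 in DPL and -0.36 in L (6 libraries each). In DLDPL these were replicates 18 and 28, which were low in both genes, and leaving out the extremes of 1 gene also narrows its range. In L, leaving out replicate 2 alone gave r = 0.88 (exact permutation p = 0.00873), and leaving out replicate 5, the highest of L in both genes, gave -0.11 (exact permutation p = 0.836).

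**Figure D3:**
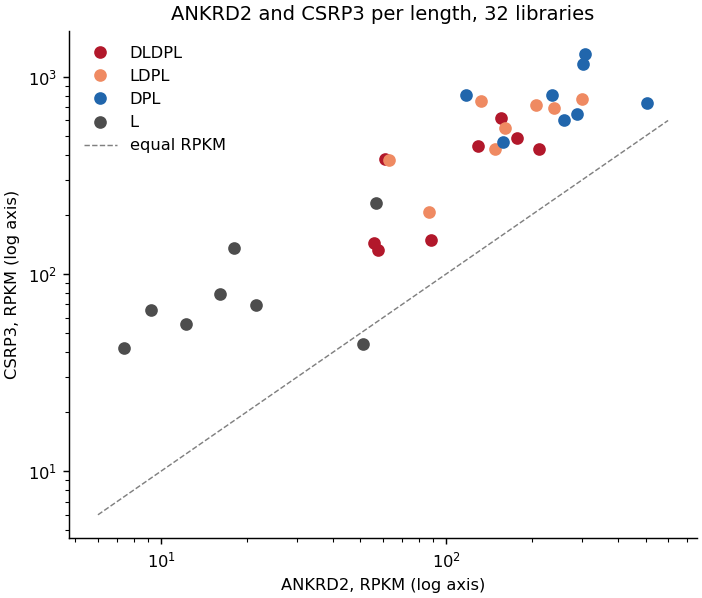
CSRP3 against ANKRD2 in RPKM on log axes, with 1 point per library coloured by breed group and a dashed line where both are equal. The 31 libraries above the line have more CSRP3, and the 1 library below it is L replicate 2, with a ratio of 0.862.

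The spread of both genes within groups was wide. The coefficient of variation of ANKRD2 was 46.3% in DLDPL, 50.1% in LDPL, 41.0% in DPL and 68.5% in L. That of CSRP3 was 54.0% in DLDPL, 37.6% in LDPL, 43.9% in DPL and 67.1% in L. Among 7411 genes with a mean of at least 5 CPM, the median was 17.5% in DLDPL, 17.5% in LDPL, 21.7% in DPL and 16.4% in L, and between 92.1% and 98.6% of them varied less than ANKRD2 or CSRP3 in the same group. The biological coefficient of variation fitted by edgeR was 0.482 for ANKRD2 and 0.480 for CSRP3, against a median of 0.196 over the same 7411 genes.

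The close relatives had smaller log2 changes between DPL and L, which the choice of ANKRD2 and CSRP3 on these values makes likely. The other muscle ankyrin repeat proteins are ANKRD1, known as a cardiac stress marker, and ANKRD23, named for a link with diabetes. CSRP1 and CSRP2, the other cysteine and glycine-rich LIM proteins, are best known from smooth muscle. Of these 4 genes, 2 rose and 0 fell in DPL against L, where 19.1% of all tested genes were called higher and 18.9% lower. Their median log2 change was 0.51, against -0.02 over all tested genes.

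ANKRD1 ranged from 494 to 2267 CPM with a median of 782 CPM in DPL, and from 157 to 632 CPM (median 340.3 CPM) in L. The groups overlapped. It rose in DPL against L by 1.43 ± 0.39 on the log2 scale (2.69-fold, edgeR, adjusted p = 0.00440). In LDPL against L the change was 1.27 ± 0.39 (edgeR, adjusted p = 0.0138), a call that was lost without LDPL replicate 10 and with limma. In DLDPL against L it was 0.96 ± 0.39 (edgeR, adjusted p = 0.0722), and in DLDPL against DPL -0.46 ± 0.39 (edgeR, adjusted p = 0.537).

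CSRP1 averaged 23.0 ± 6.54 CPM in DPL and 16.2 ± 2.35 CPM in L (SD, n = 8 each). It rose in DPL by 0.50 ± 0.17 on the log2 scale (edgeR, adjusted p = 0.0218). That call was lost with upper-quartile scaling, with the coverage covariate, with limma and without DPL replicate 16, with adjusted p up to 0.260 over 25 alternatives. In DLDPL it averaged 26.3 ± 6.12 CPM and rose against L by 0.70 ± 0.17 (edgeR, adjusted p = 0.00376), and the call held in all 25 alternatives.

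ANKRD23 averaged 557 ± 167 CPM in DPL and 774 ± 218 CPM in L, so its log2 change of -0.47 ± 0.20 was opposite in sign to that of ANKRD2 (edgeR, adjusted p = 0.0570). It was called lower in 8 of 25 alternatives, upper-quartile scaling, limma on RPKM and DESeq2 among them. CSRP2 was low, at 3.38 ± 2.17 CPM in DPL and 2.34 ± 0.722 CPM in L (log2 change 0.52 ± 0.25, edgeR, adjusted p = 0.102). Per length, ANKRD23 was the most abundant gene of the 6 in L, at 856 ± 169 RPKM, above ANKRD1 at 225 ± 86.7 RPKM.

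**Figure D4:**
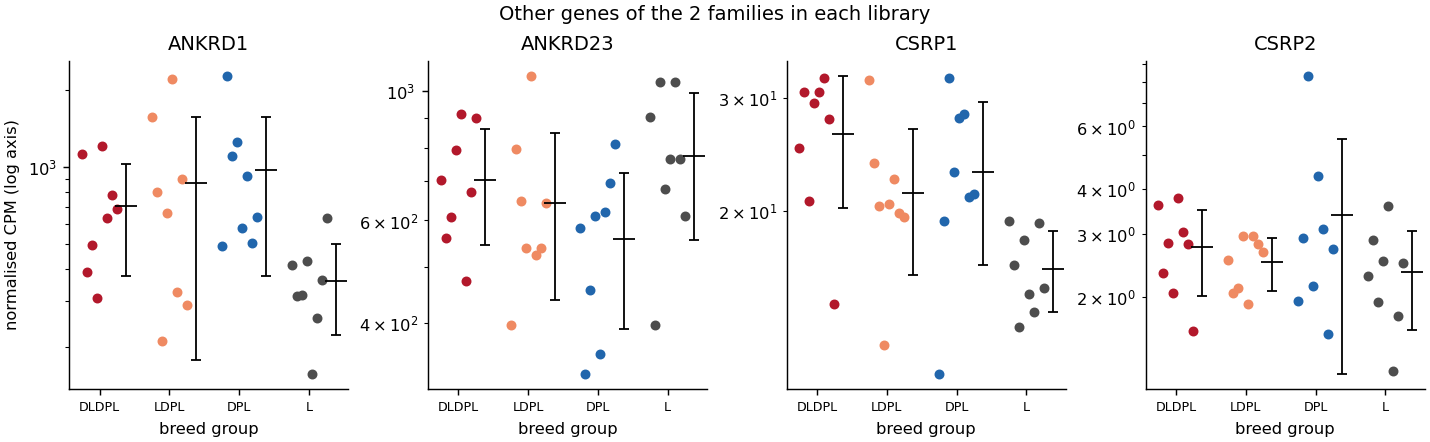
Normalised CPM of ANKRD1, ANKRD23, CSRP1 and CSRP2 on log axes, with 1 point per library in the groups DLDPL, LDPL, DPL and L, and the group mean ± SD beside the points (n = 8 each). In all 4 panels the DPL and L libraries overlap.

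Lists of genes around the 2 proteins were then read in DPL against L, leaving out ANKRD2 and CSRP3 themselves. The lists were chosen with earlier results of these data known. Genes named below as higher or lower in this comparison were picked for the smallest adjusted p of their list in it. Their adjusted p-values and the counts of calls are therefore not independent of these choices, and are given as a description. Some genes stand in several lists, and each count is to be read against the background of 19.1% higher and 18.9% lower calls. For genes whose DPL and L libraries do not overlap, the share over all tested genes is not given here. Nothing is read from such a gap. Scaling matters for the counts of calls. Of the calls in this comparison 50.4% were higher with the scaling used here, against 38.6% with upper-quartile scaling and 27.2% with limma on log2(RPKM + 1). The median change of all genes was -0.02 here, -0.10 with upper-quartile scaling and -0.12 with limma on log2(RPKM + 1).

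Of 36 genes of Z-disc and titin-linked proteins, 23 had a symbol in the name table and were tested, and 16 of them rose while 0 fell, with a median log2 change of 0.62. BAG3, a co-chaperone that helps to clear damaged filamin from the Z-disc, ranged from 574 to 1636 CPM (median 832 CPM) in DPL and from 126 to 277 CPM (median 205 CPM) in L. The groups did not overlap, and BAG3 rose by 2.13 ± 0.19 (edgeR, adjusted p = 7.02e-10). FLNC, the filamin of the Z-disc, ranged from 3868 to 9209 CPM (median 5966 CPM) in DPL and from 1121 to 2964 CPM (median 1459 CPM) in L, without overlap. It rose by 1.84 ± 0.25 (edgeR, adjusted p = 6.09e-07).

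MYOT, or myotilin, an actin-bundling protein of the Z-disc, rose by 0.81 ± 0.11 (edgeR, adjusted p = 4.31e-07), with every DPL library above every L library. TRIM63, a ubiquitin ligase of the titin M-band region known from muscle wasting, rose by 1.23 ± 0.19 (edgeR, adjusted p = 4.46e-06). The 7 members that were not called had changes between -0.46 and 0.15, among them NEB (nebulin) at 0.00 ± 0.15. With upper-quartile scaling the counts were 14 higher and 1 lower, and with limma on log2(RPKM + 1) they were 11 and 1.

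The same list gave 11 higher and 0 lower genes in LDPL against L, where 14.9% of all tested genes were called higher and 14.7% lower. In DLDPL against L it gave 10 higher and 0 lower, where 11.6% were called higher and 10.3% lower. These counts share the L libraries. In DLDPL against DPL 1 of the 23 genes (4.35%) was called lower, where 2.12% of all tested genes were. It was MYOT, which fell by 0.42 on the log2 scale with an SE of 0.11 (edgeR, adjusted p = 0.0202). Its call was lost in 5 of 25 alternatives, among them the coverage covariate and leaving out DLDPL replicate 29.

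**Figure D5:**
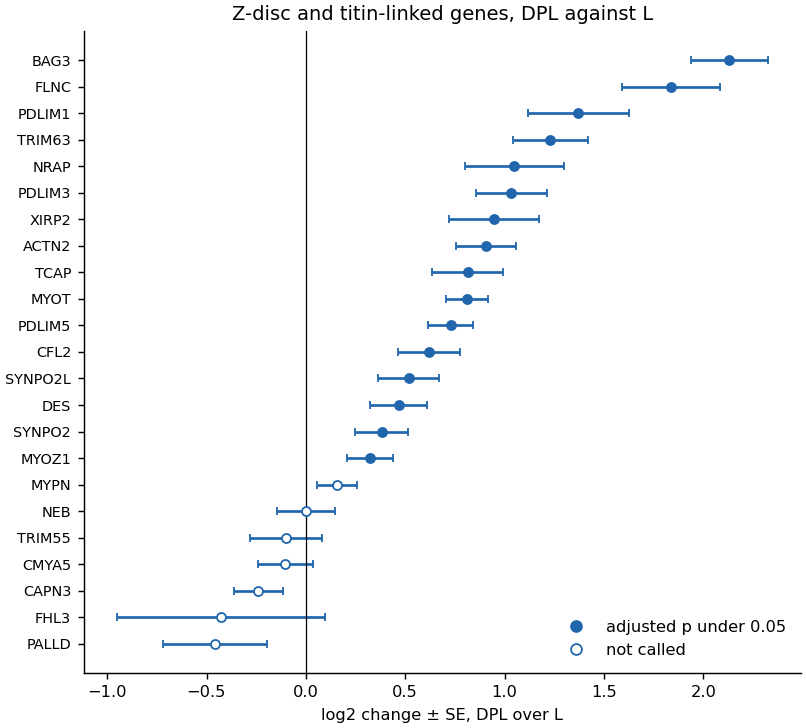
Log2 change ± SE in DPL over L of the 23 tested genes of the Z-disc and titin-linked list, ordered by size, with filled points where the adjusted p is under 0.05. The 16 filled points run from 0.32 for MYOZ1 to 2.13 for BAG3, and the open points run from -0.46 to 0.15.

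Among 19 tested genes reported to bind ANKRD2 or CSRP3, 9 rose and 2 fell, with a median of 0.26. ACTN2, the alpha-actinin that cross-links actin at the Z-disc, ranged from 2846 to 4803 CPM (median 3688 CPM) in DPL and from 1455 to 2811 CPM (median 1906 CPM) in L. The groups did not overlap, and ACTN2 rose by 0.91 ± 0.15 (edgeR, adjusted p = 1.45e-05). TCAP, or telethonin, the cap of titin at the Z-disc, rose by 0.81 ± 0.18 (edgeR, adjusted p = 0.000492). MYF6, a myogenic transcription factor of mature fibres, rose by 1.28 ± 0.22 (edgeR, adjusted p = 2.94e-05).

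PPP3CA, the catalytic subunit of calcineurin, fell in DPL against L, to 24.1 ± 6.14 CPM in DPL against 51.0 ± 10.1 CPM in L (log2 change -1.08 ± 0.15, edgeR, adjusted p = 6.56e-07). RCAN1, an inhibitor of calcineurin whose own RNA is raised by calcineurin signalling, ranged from 94.4 to 1312 CPM (median 345 CPM) in DPL and from 15.5 to 23.2 CPM (median 21.2 CPM) in L. It rose by 4.27 ± 0.45 without overlap of the groups (edgeR, adjusted p = 1.05e-08). NFATC1, a transcription factor activated by calcineurin, rose by 0.81 ± 0.22 (edgeR, adjusted p = 0.00347). Over the 15 tested genes of calcineurin and NFAT, 4 rose and 2 fell, and the median of 0.02 turned to -0.06 with upper-quartile scaling and -0.13 with limma on log2(RPKM + 1).

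Of 18 tested genes of the Hippo effectors YAP and TAZ, which respond to stretch, 4 rose and 3 fell with a median of 0.20. CCN1, a matrix protein that serves as a standard readout of YAP, ranged from 89.9 to 183 CPM (median 135 CPM) in DPL and from 11.3 to 34.3 CPM (median 18.4 CPM) in L. It rose by 2.80 ± 0.29 without overlap of the groups (edgeR, adjusted p = 7.56e-09). CCN2, its close relative, rose by 1.45 ± 0.35 (edgeR, adjusted p = 0.00123). AJUBA, a LIM protein that binds the kinase LATS, fell by 0.87 on the log2 scale, at 0.782 ± 0.338 CPM in DPL and 1.42 ± 0.605 CPM in L (edgeR, adjusted p = 0.0210), and its call was lost without L replicate 5 and without L replicate 9.

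Genes of the serum response factor and its coactivators were called both ways, with 4 of 14 higher and 4 lower and a median of -0.11. EGR1, an immediate early gene, rose by 3.12 ± 0.52 (edgeR, adjusted p = 1.57e-05), and TAGLN, an actin-binding protein of smooth muscle, rose by 1.29 ± 0.19 (edgeR, adjusted p = 3.16e-06). CNN1, a calponin of smooth muscle, fell by 1.08 on the log2 scale (edgeR, adjusted p = 7.33e-05). Of 18 tested costamere and integrin genes 3 rose and 6 fell, with a median of -0.11. ITGA5, an integrin subunit that binds fibronectin, rose by 1.96 ± 0.25 (edgeR, adjusted p = 3.23e-07), NRAP, which links actin to the costamere, rose by 1.05 ± 0.25 (edgeR, adjusted p = 0.00119), and SNTB1, a syntrophin, fell by 1.04 on the log2 scale (edgeR, adjusted p = 0.000522).

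Fibre type lists are given because both genes are known for slow muscle. Of 9 tested slow fibre genes 4 rose and 1 fell, with a median of 0.60, and of 9 fast fibre genes 2 rose and 6 fell, with a median of -0.61. MYH7B, a myosin heavy chain of slow fibres, rose by 1.43 ± 0.26 (edgeR, adjusted p = 7.05e-05), and CA3, a carbonic anhydrase of slow fibres, fell by 0.96 on the log2 scale (edgeR, adjusted p = 0.000373). PVALB, the calcium buffer of fast fibres, ranged from 2.04 to 15.5 CPM in DPL (median 4.37 CPM) and from 4.65 to 95.2 CPM in L (median 36.4 CPM). The log2 change was -2.72 ± 0.53 (edgeR, adjusted p = 0.000151). In LDPL against L 1 of the 9 slow genes rose and 2 of the 9 fast genes fell. These are shares of 11.1% and 22.2%, beside 14.9% higher and 14.7% lower over all tested genes. The myosin heavy chains MYH7, MYH1, MYH2 and MYH4 of these lists were not tested. In DLDPL against DPL 1 of the 9 slow genes (11.1%) and 2 of the 9 fast genes (22.2%) rose, and 0 fell. Over all tested genes 1.98% were called higher and 2.12% lower there. In LDPL against DPL 1 slow gene rose and 0 fell, and 3 fast genes rose and 1 fell, beside 1.29% higher and 1.56% lower. The part of fibre type in the levels of ANKRD2 and CSRP3 was not tested in any comparison.

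Of 6 tested genes that respond to loss of the nerve, 1 rose and 3 fell in DPL against L. MUSK, the receptor kinase of the motor endplate, rose by 1.60 ± 0.42 (edgeR, adjusted p = 0.00298). HDAC4, a deacetylase that is raised after denervation, fell by 1.15 on the log2 scale (edgeR, adjusted p = 2.24e-05). CHRNA1, a subunit of the acetylcholine receptor, had 0.444 ± 0.242 CPM in DPL and 1.39 ± 1.87 CPM in L (log2 change -1.66 ± 0.50, edgeR, adjusted p = 0.00890), and its call was lost without L replicate 2 and with limma-voom.

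Markers of other cells moved in DPL against L as well. Of 5 tested fibroblast markers 0 rose and 4 fell, and their summed level ranged from 323 to 1205 CPM in DPL and from 1205 to 3166 CPM in L. Of 6 satellite cell and immature fibre markers 0 rose and 5 fell, with sums of 8352 to 21528 CPM in DPL and 25277 to 49107 CPM in L. These sums hold embryonic and neonatal myosin heavy chains, whose reads may be shared with near-identical adult ones. Of 8 smooth muscle and pericyte markers 3 rose and 3 fell, with sums of 5407 to 8977 CPM in DPL and 4131 to 8685 CPM in L. These sums hold DES (desmin), which also stands in the Z-disc list, so they may include RNA of the muscle fibres. Of 5 endothelial markers 2 fell, of 5 lymphocyte markers 3 fell, and no marker of fat cells, macrophages, blood or nerve was called. The part of these cells in the levels of ANKRD2 and CSRP3 against L cannot be told apart from that of the breeds.

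The genes most like each of the 2 were ranked over 5550 genes with a symbol and a mean of at least 5 CPM, by the mean of the 4 within-group correlations of log2 CPM (8 libraries each, which share depth and handling). For ANKRD2 the first 6 were ILF2 (0.70), MAST2 (0.67), CHSY1 (0.65), SMS (0.64), ACTN2 (0.63) and DKC1 (0.61). For CSRP3 they were PRKAG1 (0.79), HOMER2 (0.71), MCAM (0.69), HOOK2 (0.68), PCBP4 (0.64) and ACTN2 (0.64). ACTN2 stood in both groups of 6, which the correlation between ANKRD2 and CSRP3 themselves makes more likely. Between ANKRD2 and CSRP3 the mean was 0.58, which placed CSRP3 15th for ANKRD2 and ANKRD2 16th for CSRP3.

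PRKAG1, a regulatory subunit of the energy sensor AMPK, correlated with CSRP3 at 0.83 in DLDPL, 0.84 in LDPL, 0.70 in DPL and 0.79 in L. Its level was 52.0 CPM in DPL and 27.7 CPM in L on average, a log2 change of 0.91. ILF2, a subunit of a double-stranded RNA-binding complex, correlated with ANKRD2 at 0.50 to 0.91 in the 4 groups and differed by 0.42 on the log2 scale in DPL against L. The genes named in these rankings had log2 changes in DPL against L between -0.48 for MCAM and 1.24 for SMS. These lie below the 3.36 of CSRP3 and the 3.75 of ANKRD2, which were chosen on that comparison.

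A second ranking used the distance in the 3 log2 changes against L, the values that chose the genes, and is a description. Nearest to ANKRD2 were OTUD1, SMPDL3A, NR4A2, AMPD3 and CSRP3, and nearest to CSRP3 were AMPD3, LIPG, OTUD1, MYC and TUBA4A, with ANKRD2 in 6th place. OTUD1, a deubiquitinase, was 3.49 higher in DPL, 2.89 in LDPL and 2.40 in DLDPL on the log2 scale, side by side with 3.75, 2.96 and 2.37 for ANKRD2. Its mean within-group correlation with ANKRD2 was 0.15. AMPD3, an AMP deaminase, was 3.43, 2.51 and 2.14 higher, against 3.36, 2.70 and 1.97 for CSRP3, and its mean within-group correlation with CSRP3 was -0.15. Apart from ANKRD2 and CSRP3 themselves, the genes nearest in the changes between breeds had mean within-group correlations between -0.24 and 0.15 with the gene they resembled.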

How the data were processed

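Loin muscle RNA in 32 libraries of 4 breed groups was sequenced by the authors, with 1 deposited file per library. Its first value column holds raw counts per gene, deposited by the authors as numbers of uniquely mapped reads, per the file headers. The deposited RPKM values are those counts per kilobase of listed length and per 1000000 reads, and recomputing them gave a relative deviation of at most 2.2e-14. Per the file headers, a coverage column gives the percent of each gene's listed length that reads touch. Bowtie 0.12.2, Cufflinks and mm8, which is a mouse build, stand in the submitters' processing notes, whereas a pig build is not given in the sources used here. Per the labels' protocols the RNA was extracted with a tissue kit from frozen muscle, and the library kit does not mark the strand.

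Groups and replicate numbers came from the labels. A gene not listed in a file was given a count of 0. Symbols from a name table matched 10836 of 17930 identifiers (60.4%), so lists are incomplete. The filter filterByExpr (edgeR 4.0.16, at least 10 reads and 15 in total) kept 12821 genes, which hold 99.97% of all reads. TMM scaling was followed by 1 quasi-likelihood fit of the 4 groups to all libraries. P-values were adjusted over the tested genes by the Benjamini-Hochberg method, and every adjusted p is from this edgeR fit unless another tool is named. The SE is the log2 change over the root of its F value, and 95% intervals use the normal approximation. CPM are counts per 1000000 reads of TMM-scaled depth. Log2 CPM values used in correlations have a prior count of 2.

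ANKRD2, CSRP3 and the 10 gene lists were chosen with earlier results of these data known. Named from each list were up to 4 tested genes with the smallest adjusted p in DPL against L, every other gene of the 2 families, and the genes most like ANKRD2 and CSRP3 by 2 measures. Genes such as RCAN1 or ACTN2 can be named under several lists. Between libraries of 1 group the chi-square per degree of freedom was at least 33.7, so no library was counted as a repeat of another.

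Alternatives were DESeq2 1.42.0, limma 3.58.1 on log2(RPKM + 1) and log2(RPKM + 0.1), limma-voom, upper-quartile scaling, no filter on low counts, no mitochondrially encoded genes, the median covered length of genes of at least 1000 bases and 500 reads as a covariate, only the 2 groups compared, number-matched pairs and leaving out each library. The code was tested on simulated counts with known changes.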

Additional observations from a re-analysis of the deposited data

Results flagged for a closer look

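In 36 groups of 8 libraries, the highest and lowest values were checked for a gap to the others that is large for the range, and chance flags about 1 in 20 such groups. The log2 ratio of ANKRD2 to CSRP3 per length was 0.21 in L replicate 2, against -2.91 to -1.69 in the other L libraries. The percent of the length of ANKRD2 covered by reads was 99.7 in DPL replicate 30, against 99.8 in the other DPL libraries, a gap of the last printed digit.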

How the results depend on the processing

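Over 6 comparisons, 299 of 304 alternatives for ANKRD2 and CSRP3 kept the direction and the side of the threshold (for comparisons with L, a value within 1 SD), and 0 reversed. The other 5 are the lost calls in DLDPL against DPL given above, whose cause was not tested. Leaving out 1 library gave log2 changes of -1.53 to -1.23 for ANKRD2 and -1.58 to -1.19 for CSRP3 in DLDPL against DPL. The coverage covariate gave -1.36 for ANKRD2 and -1.35 for CSRP3.

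Number-matched L and LDPL libraries did not deviate together (correlations -0.10 to 0.07). The labels do not say whether the numbers pair them, and a pairing with a small effect would not show here. With the replicate block LDPL against L gave 3.17 for ANKRD2, 2.53 for CSRP3 and 1813 genes called, and 2176 without the block in the same 10 libraries, against 3793 in all libraries.

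The number of genes called in LDPL against DPL (366) was 163 with the coverage covariate, 184 with limma on log2(RPKM + 1), 178 with the 2 groups only, 617 with DESeq2 and 151 to 442 without 1 library. In DLDPL against DPL (526) it was 239 with the coverage covariate, 252 with the 2 groups only, 802 with DESeq2 and 312 to 692 without 1 library. In DLDPL against LDPL (0) it was 2 with no filter, 1 with the coverage covariate, 1 with limma-voom, 33 with DESeq2 and 0 to 3 without 1 library.

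The family list gave 2 calls in DPL against L, 1 with the coverage covariate, 1 with limma-voom and 1 to 4 without 1 library. The slow fibre list gave 5, 3 with the coverage covariate, 3 with the 2 groups only and 3 to 6 without 1 library. Without 1 library the within-group r was 0.62 to 0.90 in DLDPL, 0.73 to 0.85 in LDPL and -0.11 to 0.88 in L, where it reversed without replicate 5. The ratio difference for DLDPL against DPL was -0.059 to 0.26, reversed without DLDPL replicate 32 (-0.0070) and DPL replicate 19 (-0.059). CSRP2 in DLDPL against DPL (-0.28) was -0.40 to 0.049 without 1 library, reversed without DPL replicate 16 (0.049). Over alternatives chosen after seeing the data, 18 of 98 results of genes named from lists changed their call at least in 1 of 25 alternatives.

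Calls in LDPL against L were 50.2% higher, against 38.9% with upper-quartile scaling and 37.1% with limma on log2(RPKM + 1), and in DLDPL against DPL 48.3%, against 60.4% and 88.2%. Depth limits neither ANKRD2 nor CSRP3, whose lowest counts were 204 and 1010 reads.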
